A study of Mus musculus with 11 samples.

Results

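The genes described here are the interferon-stimulated genes of mouse brown adipose tissue (BAT), the heat-producing fat depot, and of liver. They were picked by symbol, as the guanylate-binding proteins, immunity-related GTPases, Ifit, Oas, Mx, Ifi, Ifitm, Trim30, Slfn, Parp, Stat, Irf, Tap and Psmb immunoproteasome families with a set of single genes such as Isg15, Usp18, Rsad2 and Zbp1. Of the 4474 genes deposited, 75 matched: 67 of 2500 in the BAT table, 29 of 2500 in the liver table and 21 of the 526 genes common to both. No level of expression entered the choice, although each table holds a selection of genes made by the authors on a basis that the labels do not give. For BAT, 3 libraries came from mice with AAV-Cre (Cre 4, 5 and 6) and 2 from mice with AAV-GFP (controls 1 and 2), and for liver 3 from mice with AAV-Cre (Cre 10, 11 and 12) and 3 from mice with AAV-GFP (controls 7, 8 and 9). All mice, controls included, carried floxed alleles of Adcyap1r1, the PACAP receptor gene, which the labels write as Acypap1r1 floxed/floxed, all were injected in the preBötzinger complex (preBötC) of the brainstem, and all went through SEFL, an abbreviation left unexpanded in the labels. The promoter that drives Cre, the virus serotype and the cells infected are not given in the labels, and Adcyap1r1 was in neither table, so the deletion was not checked here. No label states whether libraries came from different animals, and p-values therefore describe the spread between these libraries, which may be technical.

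Interferons are secreted proteins through which cells announce infection. Type I interferons act through a complex with STAT2 and IRF9, which binds the interferon-stimulated response element (ISRE) and induces antiviral effectors, whereas interferon gamma, released mainly by T and NK cells, acts through the gamma-activated site (GAS) and strongly induces guanylate-binding proteins, immunity-related GTPases and the antigen processing machinery. The programs overlap, since many of these genes respond to both kinds of interferon. In fat and liver these genes are expressed by parenchymal cells and by resident and infiltrating immune cells.

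The values are z-scores: for each gene the mean over the 6 libraries of its tissue was set to 0 and its SD to 1, so that 1 unit is 1 SD of that gene. With 6 libraries no z-score can exceed 2.24, and a gene that is high in 1 library alone has a value near that ceiling there and nearly equal negative values elsewhere. Of the BAT libraries 5 were analysed here. A z-score keeps no abundance, so levels cannot be compared between genes, no fold change can be given, and sequencing depth is unknown. In bulk tissue, fewer cells of a type and less RNA per cell cannot be told apart.

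To show the DNA elements that these programs are named for, the first gene of each role in the BAT table with a matching promoter is printed below, from 250 bases before to 50 after the gene start (RefSeq, GRCm38.p6, 5′ to 3′ on the strand of the gene). Capitals mark the ISRE core, which was searched as GAAA, any 2 bases and GAAA on both strands (thus also TTTC, any 2 bases and TTTC), or the GAS, searched as TTCNNNGAA, whose fixed letters read alike on both strands. Overlapping matches were counted apart. The genes are Gbp2 (chr3:142620413-142620712, plus strand), a guanylate-binding protein; Psmb8 (chr17:34197945-34198244, plus strand), an immunoproteasome subunit; Ifit1 (chr19:34640639-34640938, plus strand), a sensor of foreign RNA caps; Ifih1 (chr2:62646206-62646505, minus strand), which encodes the RNA sensor MDA5; Stat2 (chr10:128270248-128270547, plus strand); and Slfn8 (chr11:83020761-83021060, minus strand), of the Schlafen family.
Gbp2: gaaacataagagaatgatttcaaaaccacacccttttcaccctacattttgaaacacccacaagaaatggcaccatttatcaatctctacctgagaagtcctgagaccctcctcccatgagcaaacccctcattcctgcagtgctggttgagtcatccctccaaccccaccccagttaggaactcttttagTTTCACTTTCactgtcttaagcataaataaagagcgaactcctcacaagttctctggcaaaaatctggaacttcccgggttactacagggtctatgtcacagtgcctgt
Psmb8: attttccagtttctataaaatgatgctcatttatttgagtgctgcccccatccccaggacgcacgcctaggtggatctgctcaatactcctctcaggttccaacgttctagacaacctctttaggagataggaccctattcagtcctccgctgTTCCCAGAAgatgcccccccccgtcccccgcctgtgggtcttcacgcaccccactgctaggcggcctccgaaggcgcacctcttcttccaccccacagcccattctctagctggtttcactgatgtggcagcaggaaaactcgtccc
Ifit1: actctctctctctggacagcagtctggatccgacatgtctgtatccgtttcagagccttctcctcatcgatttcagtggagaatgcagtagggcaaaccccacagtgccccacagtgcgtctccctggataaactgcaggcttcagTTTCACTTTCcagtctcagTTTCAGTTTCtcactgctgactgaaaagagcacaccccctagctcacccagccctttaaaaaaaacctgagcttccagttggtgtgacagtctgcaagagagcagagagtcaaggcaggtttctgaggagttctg
Ifih1: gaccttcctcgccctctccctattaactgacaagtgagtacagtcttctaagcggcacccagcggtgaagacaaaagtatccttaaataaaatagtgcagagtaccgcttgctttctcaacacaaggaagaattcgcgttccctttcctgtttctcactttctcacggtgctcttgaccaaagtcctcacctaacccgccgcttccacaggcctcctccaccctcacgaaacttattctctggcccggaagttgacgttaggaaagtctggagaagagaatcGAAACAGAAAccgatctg
Stat2: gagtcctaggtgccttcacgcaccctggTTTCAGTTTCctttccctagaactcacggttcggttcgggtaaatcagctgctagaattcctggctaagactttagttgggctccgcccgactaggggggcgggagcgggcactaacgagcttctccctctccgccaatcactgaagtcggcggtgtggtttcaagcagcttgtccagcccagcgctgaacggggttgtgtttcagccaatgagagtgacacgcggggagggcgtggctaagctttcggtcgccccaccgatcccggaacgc
Slfn8: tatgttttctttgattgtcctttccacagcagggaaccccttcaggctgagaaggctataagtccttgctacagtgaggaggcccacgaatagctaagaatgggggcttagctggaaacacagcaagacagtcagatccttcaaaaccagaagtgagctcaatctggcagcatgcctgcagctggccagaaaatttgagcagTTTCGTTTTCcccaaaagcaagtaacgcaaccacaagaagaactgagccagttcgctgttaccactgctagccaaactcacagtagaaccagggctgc

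Among these, Ifit1 held 2 ISRE cores, starting 104 and 85 bases before the gene start, Gbp2 1 at 59 bases and Stat2 1 at 222 bases before it, whereas the core of Ifih1 lay 32 bases past its start. Psmb8 had no ISRE core in this window and a GAS 97 bases before the start. A RefSeq promoter was found for 54 of the 75 genes, 49 of them in the BAT table with 58 promoters between them. The ISRE core was in 30 of these 58 promoters (51.7%), in 5.75% of the 1930 promoters of all BAT-table genes and in 3.44% of 32851 mouse promoters of the same length. The GAS was in 11 of the 58 (19.0%), in 7.36% of BAT-table promoters and in 8.30% of all promoters. By role, an ISRE core was in 8 of 9 gamma-type GTPase genes with an entry, in 13 of 22 type I effectors, in 2 of 2 sensors, in 2 of 5 PARP and Schlafen genes, in 1 of 7 transcription factors and in 0 of 4 antigen processing genes. A GAS was in 4 of the 9 gamma-type GTPase genes (Gbp5, Gbp7, Igtp and Irgm2), each of which also held an ISRE core. In Igtp the GAS started 45 and the ISRE core 34 bases before the gene start, and in Irgm2 75 and 64 bases before it. Among liver genes 11 of 18 with an entry held an ISRE core, against 3.82% of all liver-table genes with an entry. These matches are descriptions of the letters in this window and do not show that a factor binds there.

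**Figure D1:**
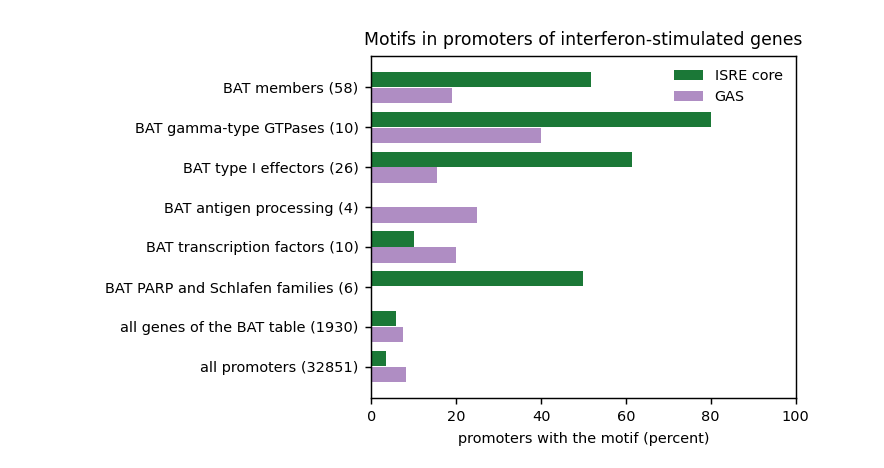
Share of promoters (percent, horizontal axis) that hold the ISRE core (green) or the GAS (purple), by role of the interferon-stimulated genes in the BAT table, with all BAT-table genes and all mouse promoters below; the number of promoters is in brackets. The ISRE core reached 80% of gamma-type GTPase promoters and 61.5% of type I effector promoters, against 5.75% in the whole BAT table.

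Libraries stood apart in both tables over all genes, before any choice of interferon genes. In BAT, 70.7% of the 2500 genes were highest in control 1, with a median z-score of 1.80, while the other analysed libraries had medians between -0.60 and -0.21. In liver, control 8 was the highest for 56.4% of genes, with a median of 1.53, the others lying between -0.47 and -0.02. Of the tissues' own markers the BAT table held 1 of 11 brown adipocyte genes (Dio2) and that of liver 5 of 11 hepatocyte genes, and with a selection of genes an absent marker says nothing of its level. Markers of other tissues were high in single libraries: lung epithelium genes in BAT Cre 4 (mean 2.20 over 4 genes), hepatocyte genes in BAT Cre 6 (1.71 over 9 genes), and skeletal muscle (2.21 over 11 genes) and brown adipocyte genes (1.86 over 9 genes) in liver Cre 12. BAT Cre 6 was the highest library for 7 of the 9 hepatocyte genes, but not for Trf (0.29) and Cyp2e1 (0.34). Liver Cre 12 was the highest for 8 of the 9 brown adipocyte genes, while Elovl3 was lowest there (-0.70). Skeletal muscle genes (12 of 12) separated the groups in BAT, with means of -1.89, 0.11 and 0.08 in Cre 4, 5 and 6, against 1.09 and 1.0 in controls 1 and 2. All 12 were non-overlapping and lower in Cre, against 28.7% of all BAT genes, and none passed the test (smallest limma adjusted p 0.486). The 4 Y-linked genes were high in BAT control 1 (mean 2.21) and in liver control 7 (2.02). In liver control 8 they ranged from -0.46 to 1.16, the latter in Kdm5d, which was at 1.63 in control 7.

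The first comparison was Cre against control in BAT. The interferon-stimulated genes were high together in 1 library, control 1, and low in control 2 and in all 3 Cre libraries. For 65 of the 67 genes control 1 was the top library, against 70.7% of all genes, and Cre 5 for the remaining 2. Means over the 67 genes were -0.61, -0.19 and -0.52 in Cre 4, 5 and 6, against 2.01 and -0.64 in controls 1 and 2, so control 2 lay at the level of the Cre libraries. Over all genes of the table the mean in control 1 was 1.29. Limma, fitted gene by gene with Benjamini-Hochberg adjustment over 2500 genes, called none of the 67 at an adjusted p of 0.05, where the share of all genes was 0%. At an unadjusted p under 0.05 there were 0 of 67 as well, against 11.4% of all genes (10.5% lower and 0.92% higher in Cre), and with variance moderation the counts were also 0 and 0.

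Cre had the lower mean for 65 of the 67 genes, against 82.5% of all genes, and the median difference was -1.23, against -1.29 over all genes. Groups did not overlap for 5 genes, all lower in Cre (28.7% of all genes were non-overlapping and lower, 4.36% higher). These were Ifit3b, Isg15, Samd9l, Ifi205 and Slfn1, and without Cre 4 there were 6 (38.3% of all genes). Without control 1 the fit has a single control and borrows its spread from the Cre libraries, and the balance turned: the Cre mean was higher for 51 and lower for 16 of the 67, against 45.6% and 49.4% of all genes, and the median difference was 0.16. Of the 67, 25 were then non-overlapping and higher in Cre (18.5% of all genes) and 5, again those that did not overlap with every library kept, lower (31.1%), while 7 had an unadjusted p under 0.05 (5.17% of all genes tested) and none an adjusted one. Without control 2, so that control 1 alone stood for the controls, 29 of 67 passed the adjusted threshold, against 18.4% of all genes, and 65 were non-overlapping and lower in Cre and 1 higher, against 77% and 9.56%. With library medians subtracted, which removes a difference of -1.12 between the groups over all genes, 48 of the 67 were lower and 19 higher in Cre, against 61.7% lower over all genes. The direction of the BAT comparison was thus that of control 1.

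**Figure D2:**
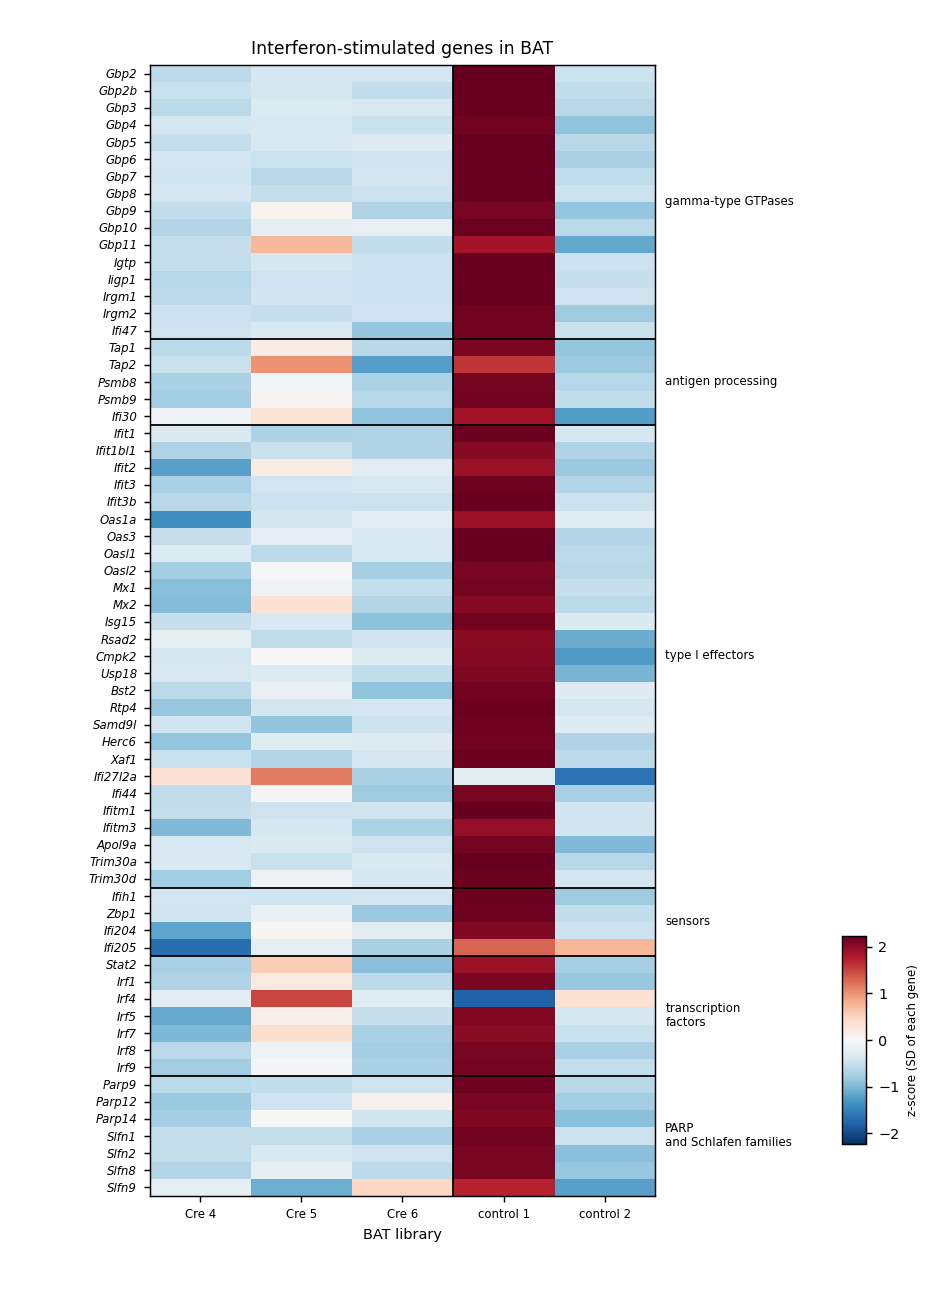
Z-scores (colour, in SD of each gene) of the 67 interferon-stimulated genes of the BAT table (1 of them not drawn) in the 3 Cre libraries (left of the black line) and the 2 control libraries (right), grouped by role. Control 1 is the highest library for all genes but Ifi27l2a and Irf4, and control 2 has the pale blue of the Cre libraries.

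The 16 gamma-type GTPases of BAT gave the sharpest form of this pattern among the roles. They are the guanylate-binding proteins Gbp2, Gbp2b, Gbp3, Gbp4, Gbp5, Gbp6, Gbp7, Gbp8, Gbp9, Gbp10 and Gbp11, which attack the vacuoles around intracellular pathogens, and the immunity-related GTPases Igtp, Iigp1, Irgm1, Irgm2 and Ifi47, which act on the same vacuoles. All 16 were highest in control 1, between 1.86 and 2.23, and 15 of them lay above 2 there. The median gap between control 1 and the next library was 2.61 and the median range of the 4 other analysed libraries 0.31, against 1.72 and 1.26 over all genes. The other libraries lay between -0.66 and -0.37 in Cre 4, -0.62 and 0.72 in Cre 5, -0.86 and -0.19 in Cre 6, and -1.14 and -0.47 in control 2.

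Gbp2 had z-scores of -0.58, -0.40 and -0.39 in Cre 4, 5 and 6, against 2.23 and -0.48 in controls 1 and 2. Its group means were -0.46 ± 0.11 (SD, n = 3) in Cre, against 0.88 ± 1.92 (SD, n = 2) in control, a difference of -1.33 with a standard error of 1.01 and a limma adjusted p of 0.531. Gbp2b, its neighbour in the same cluster, had -0.50, -0.39 and -0.55 in Cre 4, 5 and 6, against 2.22 and -0.55 in controls 1 and 2. In both genes control 1 was alone, and control 2 lay with the Cre libraries; Gbp2b and Ifit1bl1 are the 2 of these genes in which libraries are tied at the lowest value. Gbp3 had -0.61, -0.31 and -0.37 in Cre 4, 5 and 6, against 2.22 and -0.63 in controls 1 and 2. Gbp4 had -0.39, -0.35 and -0.50 in Cre 4, 5 and 6, against 2.16 and -0.89 in controls 1 and 2, and here control 2 was the lowest of the 5. Gbp8 had -0.37, -0.54 and -0.49 in Cre 4, 5 and 6, against 2.23 and -0.49 in controls 1 and 2. Gbp9 had -0.55, 0.07 and -0.67 in Cre 4, 5 and 6, against 2.12 and -0.87 in controls 1 and 2. Gene models of Gbp4, Gbp8 and Gbp9 overlap on the same strand by up to 61910 bases, so reads of these genes may be shared and their agreement is not that of separate measurements. Gbp11 departed most from the others, with -0.53, 0.72 and -0.55 in Cre 4, 5 and 6, against 1.86 and -1.14 in controls 1 and 2. Cre 5 was second, and the difference was 1.02 without control 1, against -0.48 with every library kept.

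Among the immunity-related GTPases, Igtp had -0.52, -0.40 and -0.49 in Cre 4, 5 and 6, against 2.23 and -0.48 in controls 1 and 2. Irgm2 had -0.49, -0.51 and -0.47 in Cre 4, 5 and 6, against 2.16 and -0.79 in controls 1 and 2. These regulatory GTPases, whose gene models overlap by 7974 bases on chromosome 11, differed in control 2, which was level with the Cre libraries for Igtp and lowest for Irgm2. Iigp1, Irgm1 and Ifi47 each had a difference of -1.38. Over the 16 GTPases differences ran from -1.38 to -0.48, and none passed the test (smallest limma adjusted p 0.531). Without control 1 the Cre mean was higher for 13 of the 16, with a median difference of 0.13. Of these genes 11 lay in 2 clusters, 5 (Gbp5, Gbp7, Gbp3, Gbp2b and Gbp2) within chr3:142493978-142638008 and 6 (Gbp8, Gbp9, Gbp4, Gbp10, Gbp6 and Gbp11) within chr5:105014150-105346472 of GRCm38.

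The 5 antigen processing genes, which prepare peptides for MHC presentation, shared the peak in control 1 and had more spread elsewhere. Tap1, a chain of the peptide transporter of the endoplasmic reticulum, had -0.60, 0.16 and -0.62 in Cre 4, 5 and 6, against 2.11 and -0.86 in controls 1 and 2. Tap2, its partner chain, had -0.50, 1.01 and -1.23 in Cre 4, 5 and 6, against 1.59 and -0.81 in controls 1 and 2. Psmb8, an immunoproteasome protease subunit, had -0.73, -0.06 and -0.70 in Cre 4, 5 and 6, against 2.14 and -0.64 in controls 1 and 2. Control 1 was the highest in all 3, and Cre 5 was second in all 5 genes of this role, with 1.01 for Tap2, beside control 1 at 1.59. Psmb9, the other immunoproteasome subunit of this role, and Ifi30, a lysosomal thiol reductase, had differences of -1.25 and -0.54. Psmb10, also an immunoproteasome subunit but counted on the pathway lists, had -1.03. The median gap below control 1 was 1.95 and the median range of the rest 1.02, and without control 1 the Cre mean was higher for 5 of 5 genes, with a median difference of 0.51. Tap1, Tap2, Psmb8 and Psmb9 lie side by side within chr17:34181987-34216321, where Tap1 and Psmb9 overlap by 212 bases on opposite strands.

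The 27 type I effectors of BAT, the largest role, averaged -0.61, -0.26 and -0.51 in Cre 4, 5 and 6, against 2.04 and -0.65 in controls 1 and 2. Control 1 was highest for 26 of them, and the Cre mean was lower for the same number. Ifit1, which binds foreign RNA caps, had -0.32, -0.68 and -0.67 in Cre 4, 5 and 6, against 2.19 and -0.40 in controls 1 and 2. Its means were -0.56 ± 0.21 (SD, n = 3) in Cre, against 0.90 ± 1.83 (SD, n = 2) in control, a difference of -1.45 (SE 0.98, limma adjusted p 0.531). Ifit1bl1, a paralogue beside it, had -0.67, -0.50 and -0.67 in Cre 4, 5 and 6, against 2.04 and -0.67 in controls 1 and 2. Ifit2, which binds RNA, had -1.21, 0.16 and -0.24 in Cre 4, 5 and 6, against 1.93 and -0.82 in controls 1 and 2. Ifit1 and Ifit1bl1 stayed between -0.68 and -0.32 outside control 1, while Ifit2 ranged over more than 1 SD among the Cre libraries. Ifit3b, a near-identical copy of Ifit3 whose reads are uncertain, had -0.62, -0.48 and -0.49 in Cre 4, 5 and 6, against 2.21 and -0.48 in controls 1 and 2. Its groups did not overlap, and without control 1 the difference was -0.05.

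Of the oligoadenylate synthetases, which make the activator of RNase L, Oas3 had -0.51, -0.22 and -0.34 in Cre 4, 5 and 6, against 2.22 and -0.65 in controls 1 and 2. Mx1, a nuclear dynamin-like GTPase that blocks influenza virus in mice, had -0.95, -0.07 and -0.53 in Cre 4, 5 and 6, against 2.13 and -0.52 in controls 1 and 2. Mx2, its cytoplasmic relative, had -0.97, 0.32 and -0.66 in Cre 4, 5 and 6, against 2.04 and -0.59 in controls 1 and 2. All had their peak in control 1. Oas1a, Oasl1 and Oasl2 had differences of -1.50, -1.23 and -1.25, with Oas1a lowest in Cre 4 (-1.37). Samd9l, an antiviral restriction factor, had -0.44, -0.88 and -0.47 in Cre 4, 5 and 6, against 2.17 and -0.30 in controls 1 and 2, with groups that did not overlap. Xaf1, an antagonist of the apoptosis inhibitor XIAP, had -0.50, -0.65 and -0.38 in Cre 4, 5 and 6, against 2.20 and -0.59 in controls 1 and 2. Trim30d, of the Trim30 cluster of near-identical genes, had -0.79, -0.13 and -0.37 in Cre 4, 5 and 6, against 2.19 and -0.43 in controls 1 and 2. These 3 genes again had 1 high library and 4 between -0.88 and -0.13.

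Isg15, the ubiquitin-like modifier, had -0.52, -0.34 and -0.91 in Cre 4, 5 and 6, against 2.16 and -0.32 in controls 1 and 2, and was the remaining type I effector with non-overlapping groups. Its difference of -1.51 became -0.27 without control 1. Of the genes of its conjugation cycle, Usp18, the protease that removes it, and Herc6, its ligase in mice, had differences of -0.92 and -1.21. Uba7 and Ube2l6, of the same cycle and counted on the pathway lists, had -0.09 and -1.72. Ifi27l2a, a small membrane protein gene, was the exception among the effectors, with 0.33, 1.16 and -0.73 in Cre 4, 5 and 6, against -0.23 and -1.65 in controls 1 and 2. It was highest in Cre 5 and lowest in control 2, and the groups differed by 1.19 (SE 0.88, limma adjusted p 0.531), or 1.90 without control 1. The other effectors were Ifit3, Rsad2, which encodes viperin, Cmpk2, a mitochondrial nucleotide kinase, Bst2, which encodes tetherin, Rtp4, Ifi44, Ifitm1, Ifitm3, Apol9a and Trim30a, and their differences lay between -1.49 (Bst2) and -0.60 (Cmpk2). None of the 27 passed the test (smallest limma adjusted p 0.531), and without control 1 the Cre mean was higher for 17 and lower for 10.

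The 4 sensors of BAT belong to families that recognise foreign or misplaced nucleic acid. Ifih1 (MDA5), which senses long double-stranded RNA, had -0.43, -0.45 and -0.43 in Cre 4, 5 and 6, against 2.18 and -0.80 in controls 1 and 2. The 3 Cre libraries lay within 0.02 of each other, and control 2 below them, so its difference of -1.13 became 0.36 without control 1, where it had an unadjusted limma p of 0.000722 and an adjusted p of 0.340. Zbp1, which senses Z-form nucleic acid and starts necroptosis, had -0.45, -0.16 and -0.83 in Cre 4, 5 and 6, against 2.18 and -0.55 in controls 1 and 2. Ifi204 and Ifi205 are PYHIN-family genes, whose DNA-sensing role is known for several relatives. Ifi204 had -1.18, 0.04 and -0.25 in Cre 4, 5 and 6, against 2.07 and -0.48 in controls 1 and 2. Ifi205 had -1.69, -0.20 and -0.72 in Cre 4, 5 and 6, against 1.3 and 0.74 in controls 1 and 2, and was the gene whose controls lay together above all Cre libraries by the widest margin among the 5 that did not overlap. Its means were -0.87 ± 0.76 (SD, n = 3) in Cre, against 1.02 ± 0.40 (SD, n = 2) in control, a difference of -1.89 (SE 0.60), with an unadjusted limma p of 0.0519 and an adjusted p of 0.441, the smallest of the 67 genes in either measure. Its difference was -1.61 without control 1, so this gene did not depend on that library for its direction. The skeletal muscle markers had the same libraries at the bottom (Cre 4) and at the top (both controls), and their part in the Ifi205 values was not tested.

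Of the 8 transcription factors in BAT, those of the interferon signal itself followed the effectors. Stat2, a factor of type I signalling, had -0.73, 0.55 and -0.94 in Cre 4, 5 and 6, against 1.93 and -0.75 in controls 1 and 2. Irf1, itself a gamma-induced activator, had -0.68, 0.20 and -0.59 in Cre 4, 5 and 6, against 2.10 and -0.84 in controls 1 and 2. Both peaked in control 1, and Cre 5 was second for both. Irf9, which completes the type I complex, Irf7, which amplifies type I interferon production, and Irf8, a factor of macrophages and dendritic cells, had differences of -1.32, -1.22 and -1.18. Irf5, a factor of macrophage polarisation, had -1.13, 0.13 and -0.52 in Cre 4, 5 and 6, against 2.06 and -0.39 in controls 1 and 2. Irf4, a lymphocyte factor that is not a typical interferon-induced gene and also regulates thermogenic genes in mouse brown fat, ran the other way, with -0.26, 1.49 and -0.27 in Cre 4, 5 and 6, against -1.81 and 0.32 in controls 1 and 2. It was highest in Cre 5 and lowest in control 1, its difference was 1.07 (SE 1.09, limma adjusted p 0.566), and without control 1 the difference was 0.00.

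The 7 PARP and Schlafen genes of BAT averaged -0.59, -0.46 and -0.30 in Cre 4, 5 and 6, against 2.07 and -0.83 in controls 1 and 2. Parp9, an ADP-ribosyltransferase partner that enhances interferon signalling, had -0.61, -0.54 and -0.44 in Cre 4, 5 and 6, against 2.18 and -0.62 in controls 1 and 2. Parp12, an antiviral ADP-ribosyltransferase, had -0.82, -0.47 and 0.10 in Cre 4, 5 and 6, against 2.12 and -0.76 in controls 1 and 2. Parp14, a regulator of STAT6 and macrophage responses, had -0.76, 0.01 and -0.45 in Cre 4, 5 and 6, against 2.08 and -0.94 in controls 1 and 2. In each, control 1 was high, and control 2 was lowest of the 5 for Parp9 and Parp14. Slfn9, next to its near-identical paralogue Slfn8, had -0.22, -1.09 and 0.47 in Cre 4, 5 and 6, against 1.72 and -1.21 in controls 1 and 2. It had the widest spread of this role outside control 1, and control 2 was the lowest. Slfn1, which restrains T cell growth in mice, was non-overlapping with a difference of -1.44, and -0.12 without control 1. Slfn2 and Slfn8 had differences of -1.04 and -1.12. Without control 1 the Cre mean was higher for 6 of 7 genes of this role, for 7 of the 8 transcription factors and for 3 of the 4 sensors.

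No interferon gene (0 of 21) and no interferon receptor or Janus kinase gene (0 of 9) was in either table, so no value for a ligand or receptor can be given. Of 116 symbols on the pathway lists, these included, 44 were in the BAT table, of which 43 had a lower Cre mean (all but Cd274), 43 were highest in control 1 (all but Ido1), and 0 passed the adjusted threshold. Groups did not overlap for 5 of them, all lower in Cre: Nlrc3, B2m, Lgals3bp, Ly6c2 and Ube2l6, a smaller share than the 28.7% of all BAT genes. By list these were 3 of 7 negative regulators, 4 of 16 nucleic acid sensing genes, 4 of 7 further gamma-type GTPases and 33 of 56 further induced genes, such as the gamma-induced chemokine Cxcl9 (difference -1.25) and the MHC class I light chain B2m (-1.47). With an unadjusted p under 0.05 there was 1 of the 44, against 11.4% of all BAT genes: Nlrc3, an inhibitor of nucleic acid sensing through STING. It had -0.40, -0.53 and -0.49 in Cre 4, 5 and 6, against 1.64 and 1.03 in controls 1 and 2, a difference of -1.81 (SE 0.24, limma adjusted p 0.363), and, unlike most interferon genes here, both controls lay above all Cre libraries.

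Most markers of immune cells were high in the same BAT library. T and NK cell genes, the main source of interferon gamma, had 14 of 15 members in the table, all highest in control 1, with means of -0.49, -0.24 and -0.50 in Cre 4, 5 and 6, against 2.17 and -0.61 in controls 1 and 2. Macrophage genes (8 of 12) had means of -0.78, 0.38 and -1.05 in the Cre libraries, against 1.91 and -0.58 in controls 1 and 2. Dendritic cell genes (5 of 8) had -0.64, 0.06 and -0.47 in the Cre libraries, against 1.98 and -0.70 in controls 1 and 2. Of these, 4 were highest in control 1, and Fscn1 in Cre 5 (1.49, against 1.17 in control 1). B and plasma cell genes had 1 of 10 in the table, Jchain, at 1.95 in control 1. Lymph node stroma had 1 of 6, Ccl21a, which went the other way, with -0.07, 1.33 and 0.48 in Cre 4, 5 and 6, against -0.95 and -1.57 in controls 1 and 2. It was non-overlapping and higher in Cre, as were 4.36% of all BAT genes. Plasmacytoid dendritic cells, a main source of type I interferon, had 3 of 7 members in the table, 1 of them highest in control 1, with means of -0.37, -0.15 and -0.57 in the Cre libraries, against 0.33 and 0.47 in controls 1 and 2. The 3 genes differed from each other. Siglech was at 1.74 and -0.92 in controls 1 and 2, Cox6a2 at 1.11 and 1.15, and Ly6d at -1.87 and 1.19. Cox6a2 had -1.80, 0.00 and -0.03 in Cre 4, 5 and 6, close to the means of the skeletal muscle genes. Cell division genes (7 of 10) had 2.13 and Y-linked genes (4 of 4) 2.21 in control 1, while 0 of 9 neutrophil genes were in the table. Without a level, no marker can be said to be at 0, and the part of immune cells, of the animal's sex or of this 1 library in the interferon pattern was not tested.

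**Figure D3:**
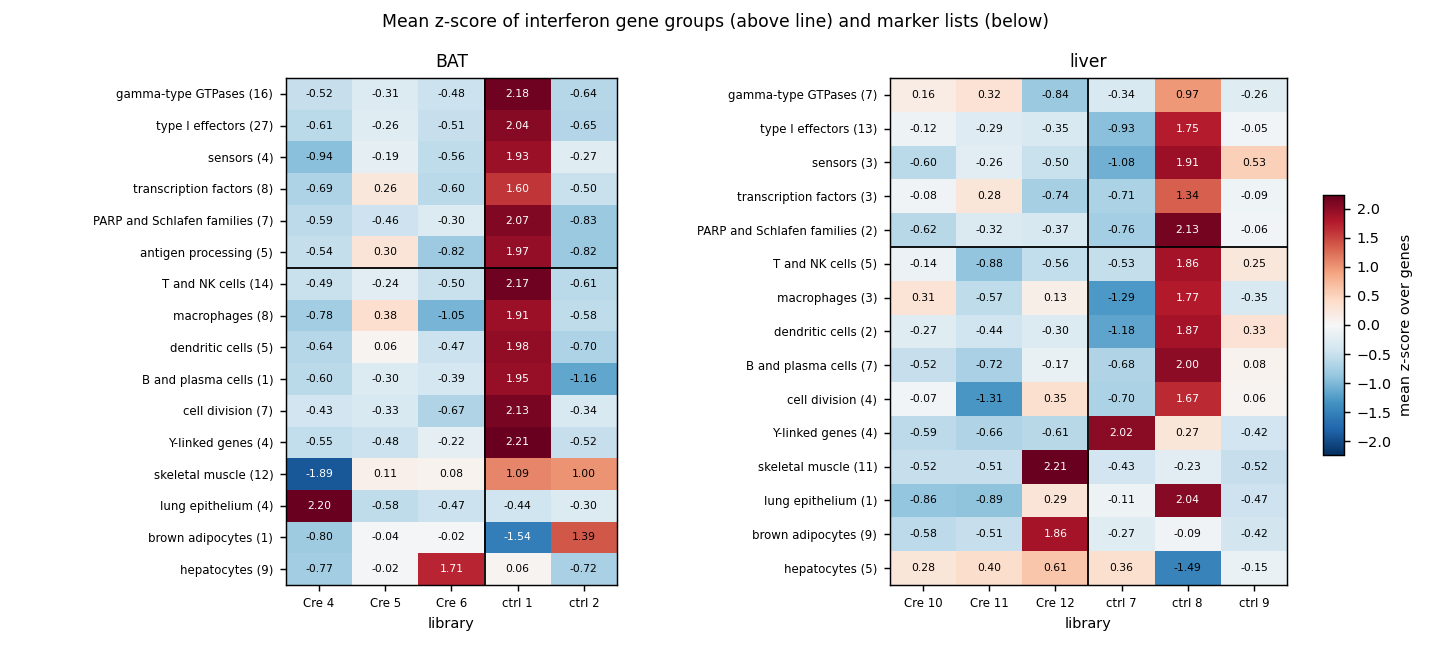
Mean z-score (colour and number in each cell) of the interferon gene roles (above the line) and of cell type marker lists (below) in every BAT (left panel) and liver library (right panel), Cre libraries left of controls, with the number of genes in brackets. In BAT, control 1 is at 1.60 to 2.18 for all interferon roles and at 2.17 for T and NK cell genes, and in liver control 8 is at 0.97 to 2.13 and 1.86.

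The second comparison was Cre against control in liver. Of 29 interferon-stimulated genes 22 were highest in control 8, against 56.4% of all liver genes. Means over the 29 genes were -0.12, -0.01 and -0.52 in Cre 10, 11 and 12, against -0.74, 1.45 and -0.06 in controls 7, 8 and 9. Over all genes of the table the mean in control 8 was 0.69. Control 7 was the lowest library for 15 of 29 genes (30% of all genes), so the libraries most often highest and most often lowest were both controls. Limma's gene-wise model called 0 of 29 genes at an adjusted p of 0.05 (0% of all genes), with 0 at an unadjusted p under 0.05 (5.76% of all genes) and 0 and 0 with variance moderation.

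The Cre mean was lower for 22 and higher for 7 of the 29 genes, against 60.4% lower over all genes, with a median difference of -0.68, against -0.50. No gene had non-overlapping groups (22.6% of all genes did), and none did without Cre 11 or without control 9 (27.9% and 33.3% of all genes). Without control 8 the balance was 13 lower and 16 higher, against 44.2% and 55.6%, and the median difference was 0.07. Without control 7 it was again 22 lower and 7 higher, and 14 genes were non-overlapping and lower and 1 higher, against 32.2% and 14.8% of all genes. The 1 higher was Irf2bpl. With library medians subtracted, which removes a difference of -0.59 between the groups over all genes, 17 genes were lower and 12 higher in Cre, against 47.4% lower over all genes, and 3 were non-overlapping and higher and 1 lower, against 12.8% and 11.1%. The means of the 3 liver controls thus spanned a wider range than those of the 3 Cre libraries. The balance of directions over the 29 genes turned without control 8, though 11 of the 29 changed sign and the others kept theirs. By count the GTPases did not turn, with 5 of 7 lower in Cre without control 8.

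**Figure D4:**
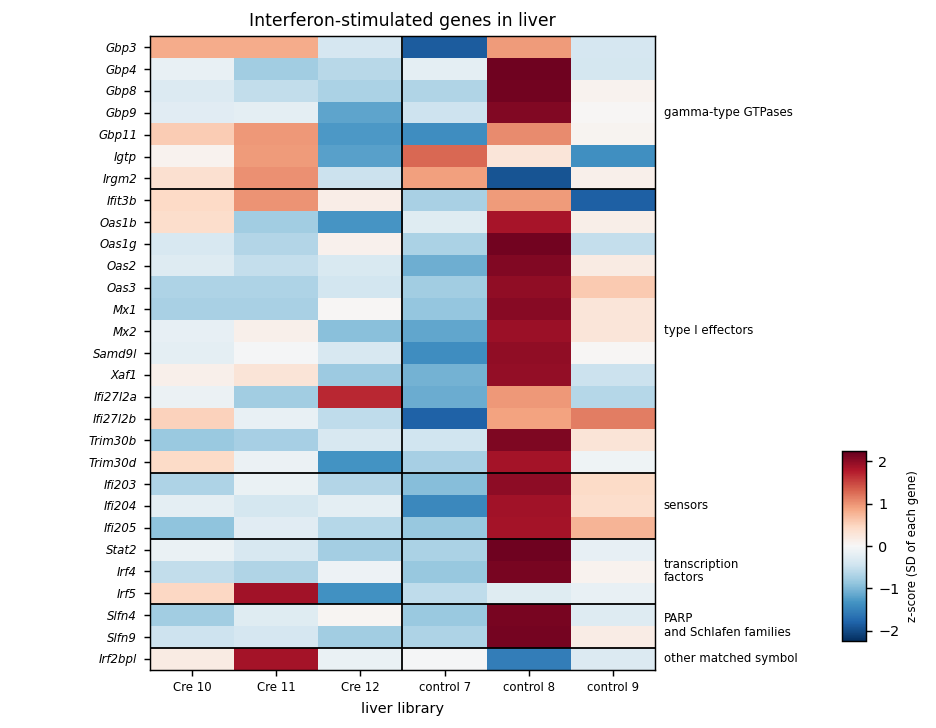
Z-scores (colour, in SD of each gene) of the 29 interferon-stimulated genes of the liver table in the 3 Cre libraries (left of the black line) and the 3 control libraries (right), grouped by role. Control 8 is the highest library for 22 genes, while Irgm2 and Irf2bpl have their lowest value there.

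The 7 gamma-type GTPases of liver did not share 1 pattern. Gbp4, Gbp8 and Gbp9, the genes with overlapping models, had z-scores above 2 in control 8. Gbp4 had -0.16, -0.78 and -0.62 in Cre 10, 11 and 12, against -0.22, 2.18 and -0.40 in controls 7, 8 and 9. Gbp8 had -0.30, -0.55 and -0.71 in Cre 10, 11 and 12, against -0.68, 2.15 and 0.09 in controls 7, 8 and 9. Gbp9 had -0.25, -0.21 and -1.18 in Cre 10, 11 and 12, against -0.46, 2.07 and 0.03 in controls 7, 8 and 9. The Cre libraries lay at or below -0.16 in all 3, and so did control 7. Gbp3 had 0.83, 0.83 and -0.37 in Cre 10, 11 and 12, against -1.86, 0.95 and -0.37 in controls 7, 8 and 9, with control 7 alone at the bottom and the Cre mean above the control mean by 0.85 (SE 0.90, limma adjusted p 0.661). Gbp11 had 0.57, 0.98 and -1.29 in Cre 10, 11 and 12, against -1.39, 1.06 and 0.06 in controls 7, 8 and 9. Igtp had 0.07, 0.95 and -1.21 in Cre 10, 11 and 12, against 1.28, 0.28 and -1.38 in controls 7, 8 and 9. Irgm2 had 0.36, 1.02 and -0.48 in Cre 10, 11 and 12, against 0.92, -1.94 and 0.12 in controls 7, 8 and 9. For Irgm2 control 8 was the lowest library and for Igtp control 7 was the highest, so the overlapping neighbours differed from each other and from the Gbp genes. Over the 7 genes the Cre mean was higher for 3 (Gbp3, Gbp11 and Irgm2) and lower for 4, the median difference was -0.12, and without control 8 it was -0.21. The tissue mean of the role was 0.97 in control 8 for liver and 2.18 in control 1 for BAT.

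The 13 type I effectors of liver were more uniform. Control 8 was highest for 10 of them, and means over the 13 were -0.12, -0.29 and -0.35 in Cre 10, 11 and 12, against -0.93, 1.75 and -0.05 in controls 7, 8 and 9. Oas1b, known for flavivirus resistance in mice, had 0.40, -0.78 and -1.32 in Cre 10, 11 and 12, against -0.28, 1.85 and 0.13 in controls 7, 8 and 9. Oas1g, a near-identical relative, had -0.36, -0.65 and 0.10 in Cre 10, 11 and 12, against -0.72, 2.15 and -0.53 in controls 7, 8 and 9. Oas3 had -0.70, -0.69 and -0.41 in Cre 10, 11 and 12, against -0.78, 1.98 and 0.59 in controls 7, 8 and 9. Control 8 stood above all others in each of these genes, and Oas2 had the same peak, with 2.07. Mx1 had -0.72, -0.73 and 0.02 in Cre 10, 11 and 12, against -0.87, 2.03 and 0.27 in controls 7, 8 and 9. Mx2 had -0.18, 0.11 and -0.94 in Cre 10, 11 and 12, against -1.17, 1.91 and 0.27 in controls 7, 8 and 9. In both Mx genes the controls held the highest and the lowest library. Samd9l had -0.22, -0.03 and -0.37 in Cre 10, 11 and 12, against -1.38, 1.98 and 0.02 in controls 7, 8 and 9. Xaf1 had 0.11, 0.28 and -0.82 in Cre 10, 11 and 12, against -1.06, 1.97 and -0.49 in controls 7, 8 and 9. These followed the Mx genes, with control 8 at 1.91 to 2.03 and control 7 lowest in all 4.

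Trim30b had a difference of -1.29 (SE 0.77), with the smallest unadjusted limma p of the 29, 0.168, and an adjusted p of 0.625. Trim30d had 0.42, -0.13 and -1.33 in Cre 10, 11 and 12, against -0.74, 1.87 and -0.10 in controls 7, 8 and 9. Ifit3b, the 1 Ifit gene of the liver table, had 0.44, 1.0 and 0.14 in Cre 10, 11 and 12, against -0.72, 0.96 and -1.83 in controls 7, 8 and 9. Unlike in the Oas and Mx genes, Cre 11 was highest and control 9 lowest, with a difference of 1.06 (SE 0.85, limma adjusted p 0.626). Without control 8 its groups did not overlap (as in 28.7% of all genes), and the difference was 1.80, at an unadjusted limma p of 0.0418 and an adjusted p of 0.527. It was the 1 gene of 29 under 0.05 there, against 8.89% of all genes. Ifi27l2a had -0.14, -0.77 and 1.68 in Cre 10, 11 and 12, against -1.10, 0.97 and -0.63 in controls 7, 8 and 9, highest in Cre 12, which also had high skeletal muscle and brown adipocyte markers. Its neighbour Ifi27l2b had a difference of -0.15. Differences of the 13 effectors were negative for 11 and positive for 2 (Ifit3b and Ifi27l2a).

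The 3 sensors of liver were all PYHIN genes of the cluster within chr1:173747293-174031810. Ifi203, whose model overlaps Mndal by 22085 bases on the same strand, had -0.68, -0.14 and -0.65 in Cre 10, 11 and 12, against -0.95, 2.0 and 0.42 in controls 7, 8 and 9. Ifi204 had -0.22, -0.39 and -0.22 in Cre 10, 11 and 12, against -1.45, 1.87 and 0.40 in controls 7, 8 and 9. Ifi205 had -0.89, -0.25 and -0.63 in Cre 10, 11 and 12, against -0.84, 1.86 and 0.76 in controls 7, 8 and 9. In each, control 8 was highest, control 9 second, and control 7 below the mean of the Cre libraries. Without control 7, Ifi205 differed by -1.90 at an unadjusted limma p of 0.0281, and Oas3 by -1.88 at 0.0383, each with an adjusted p of 0.410. These were the 2 of 29 genes under 0.05 in that setting, where the share of all genes was 7.96%.

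The transcription factors of liver were Stat2, Irf4 and Irf5. Stat2 had -0.14, -0.36 and -0.77 in Cre 10, 11 and 12, against -0.71, 2.17 and -0.18 in controls 7, 8 and 9. Irf4 had -0.55, -0.68 and -0.11 in Cre 10, 11 and 12, against -0.85, 2.12 and 0.08 in controls 7, 8 and 9. Both were high in control 8 alone. Irf5 had 0.47, 1.88 and -1.35 in Cre 10, 11 and 12, against -0.57, -0.27 and -0.16 in controls 7, 8 and 9, with its peak in Cre 11 and its lowest value in Cre 12, so that the widest distance lay within the Cre group. Of the 2 Schlafen genes, Slfn4, a gene of myeloid cells, had -0.79, -0.27 and 0.04 in Cre 10, 11 and 12, against -0.83, 2.13 and -0.28 in controls 7, 8 and 9. Slfn9 had -0.46, -0.37 and -0.77 in Cre 10, 11 and 12, against -0.69, 2.13 and 0.16 in controls 7, 8 and 9, and control 8 was again the highest for both. Irf2bpl entered by its symbol. It encodes a relative of an IRF2-binding protein and falls under none of the roles, and it had 0.18, 1.86 and -0.15 in Cre 10, 11 and 12, against -0.03, -1.55 and -0.31 in controls 7, 8 and 9. Its difference was 1.26 (SE 0.78, limma adjusted p 0.625).

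Of the pathway genes 18 of 116 were in the liver table: the Cre mean was lower for 13 and higher for 5, 3 were non-overlapping and lower (Gvin1, Ms4a4b and Serpina3g; 12.3% of all liver genes) and 1 higher (Ly6e; 10.3% of all), a share near that of the table, 14 were highest in control 8, and 0 passed the adjusted threshold. The 1 gene of the 18 with an unadjusted p under 0.05, against 5.76% of all liver genes, was Gvin1, a very large interferon-inducible GTPase. It had -0.43, -0.49 and -1.61 in Cre 10, 11 and 12, against 1.10, 1.32 and 0.11 in controls 7, 8 and 9, a difference of -1.69 (SE 0.53, limma adjusted p 0.623). Here controls 7 and 8 were both high, which set it apart from the Oas and Mx genes, whose control 7 was low. Immune markers were high in control 8 in liver too, and the 17 genes of the first 4 lists given here were all highest there. T and NK cell genes (5 of 15) had means between -0.88 and -0.14 in the Cre libraries, against -0.53, 1.86 and 0.25 in controls 7, 8 and 9. B and plasma cell genes (7 of 10) had means between -0.72 and -0.17 in the Cre libraries, against -0.68, 2.0 and 0.08 in controls 7, 8 and 9. Macrophage genes (3 of 12) had means between -0.57 and 0.31 in the Cre libraries, against -1.29, 1.77 and -0.35 in controls 7, 8 and 9. Dendritic cell genes (2 of 8) had means between -0.44 and -0.27 in the Cre libraries, against -1.18, 1.87 and 0.33 in controls 7, 8 and 9. Neutrophil genes (2 of 9) had means between -0.85 and -0.01 in the Cre libraries, against 2.06 in control 8. Plasmacytoid dendritic cell genes (2 of 7) had means between -0.96 and -0.31 in the Cre libraries, against 0.13, 1.82 and -0.07 in controls 7, 8 and 9. Hepatocyte genes (5 of 11) ran the other way, with 0.28, 0.40 and 0.61 in Cre 10, 11 and 12, against 0.36, -1.49 and -0.15 in controls 7, 8 and 9. The part of these differences in cell content in the interferon values was not tested, and neither was that of the animals' sex.

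The 21 genes in both tables allowed the Cre difference to be set side by side by tissue. The difference was below 0 for 19 of 21 in BAT and for 15 of 21 in liver, and for 14 in both. The tables were scaled separately, so a difference between tissues is in units of each tissue's own spread. Limma's contrast of the BAT difference minus the liver difference called 0 of 21 genes over the 526 shared genes (0% of which passed), 0 of 21 at an unadjusted p under 0.05 (6.84% of the 526), and the smallest adjusted p of any shared gene was 0.426. Ifit3b had the largest contrast of the 21, -2.46 (SE 1.31, unadjusted p = 0.102, adjusted p = 0.707), from differences of -1.4 in BAT and 1.06 in liver. Gbp3, at -1.23 in BAT and 0.85 in liver, had a contrast of -2.08 (SE 1.39, unadjusted p = 0.178, adjusted p = 0.752). Irf4 had the opposite signs, 1.07 in BAT and -0.90 in liver, and a contrast of 1.96 (SE 1.4, unadjusted p = 0.203, adjusted p = 0.774). Genes with near-equal differences were Oas3 (-1.14 in BAT and -1.19 in liver), Gbp4 (-1.05 and -1.04) and Stat2 (-0.96 and -0.85). None of the 21 contrasts passed the threshold.

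Set against each other by type, the gamma-type GTPases and the type I genes (effectors, sensors, transcription factors, PARP and Schlafen genes) were close in BAT. The mean difference was -1.20 for the 16 GTPases and -1.12 for the 46 type I genes. In liver it was -0.24 for the 7 GTPases and -0.49 for the 22 type I genes, which here include Irf2bpl. The median difference with all libraries was -1.27 for the GTPases and -1.22 for the type I genes in BAT, and -0.12 and -0.68 in liver. Without the control library that stood apart, this median was 0.13 and 0.14 in BAT, and -0.21 and 0.09 in liver. Mean and median parted for the liver GTPases. Their means were 0.16, 0.32 and -0.84 in Cre 10, 11 and 12, against -0.34 and -0.26 in controls 7 and 9. By means, both types were thus higher in Cre in liver without control 8. No test was made between the types, since the genes of a type share libraries and are not replicates.

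**Figure D5:**
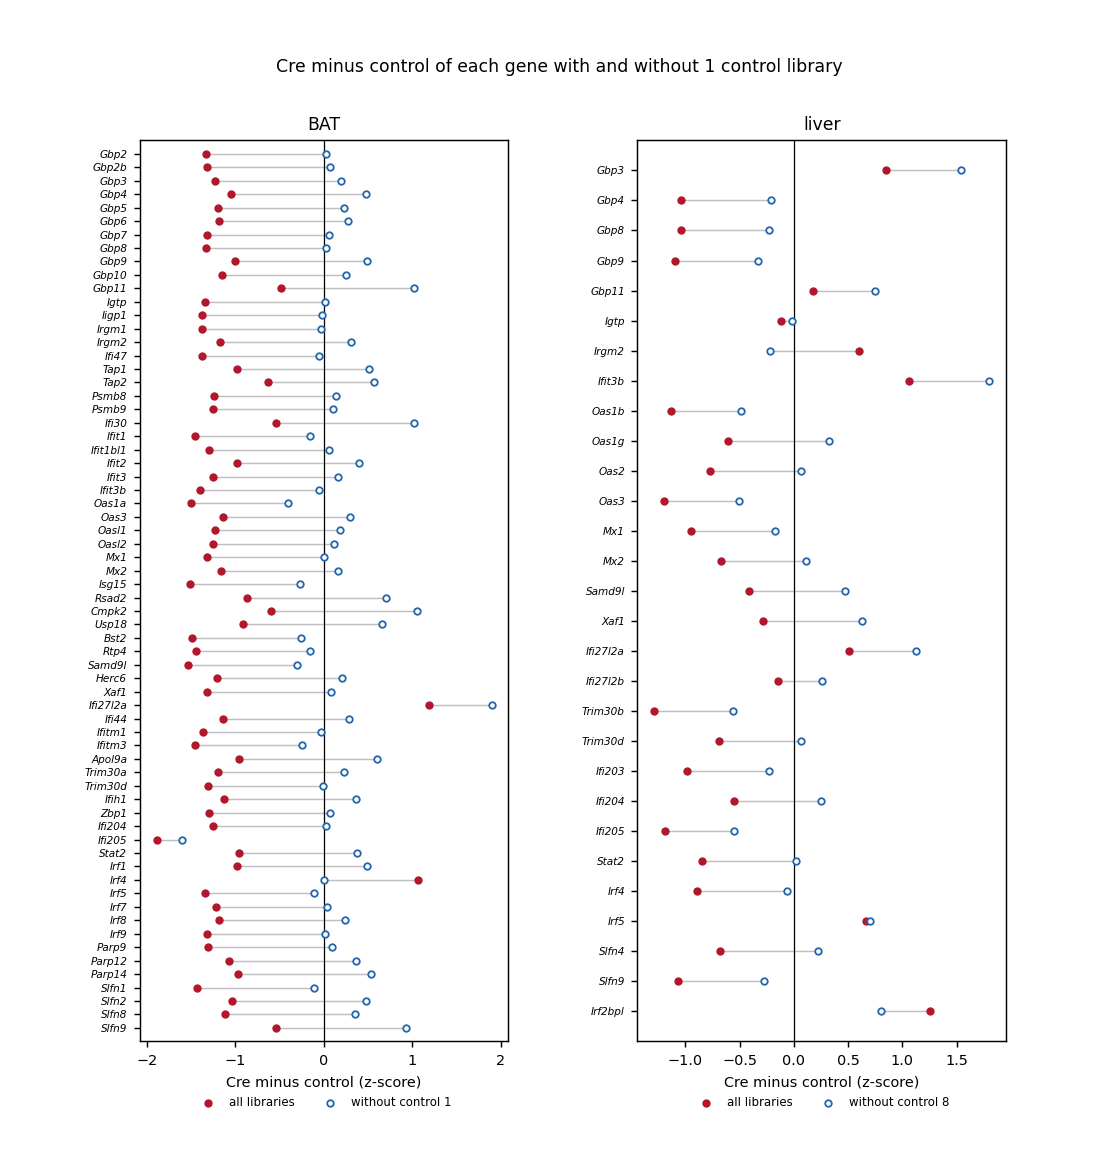
Cre minus control (z-score, horizontal axis) of each interferon-stimulated gene with all libraries (filled red) and without control 1 in BAT or control 8 in liver (open blue). In BAT nearly all filled points lie below 0, and open points lie on both sides of it, above it for 51 of 67 genes (1 of which is not drawn); in liver open points lie above 0 for 16 of 29 genes.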

How the data were processed

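Poly(A) RNA of mouse BAT and liver was sequenced in 11 libraries analysed here, which the sample titles assign to a tissue and to Cre or control. Per the submitters' processing notes, TopHat 1.3.3 and DESeq2 1.20.0 were used, with the builds mm9, mm10 and GRCm38 named and no step given for each. The values are scores: the authors deposited 1 table of 2500 genes per tissue, in which each gene is a z-score over 6 libraries. A 6th BAT library included in that scaling is not analysed here. How the 2500 genes were chosen and whether counts were logged before scaling are not given in the sources used here. The table names speak of genes lower (BAT) or higher (liver) in Cre, yet both hold genes of either direction. Depth is unknown. The labels' protocols describe both directional and non-directional libraries, so overlapping genes on opposite strands cannot be told apart.

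Cre was compared with control in each tissue by limma 3.58.1 (R 4.3.3), with a gene-wise linear model without variance moderation, two-sided, and Benjamini-Hochberg adjustment over the 2500 genes (526 for the contrast of tissues) at 0.05. Genes with a residual SD under 1e-06 were not tested. The models were also run on simulated data, in which genes were independent and no library stood apart. That run does not show how the models behave where 1 library stands apart. Non-overlapping means that every Cre library lay on 1 side of every control. Positions are from GENCODE vM21 of GRCm38, and promoters from RefSeq. Summaries used Python 3.11.15 with pandas 2.3.3.

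Members and gene lists were chosen with earlier results of these data known. Values of every library are given for the first 3 members of each role list, for members in both tables and for any member with an unadjusted p under 0.05 (there was none), and pathway genes are named where that p was under 0.05. Further genes were named after their values were seen, and 1 gene included in the counts is not reported here by name or drawn. Alternatives were variance moderation, library ranks, library medians subtracted, genes tied at the lowest value left out, BAT z-scores recomputed over 5 libraries, medians over members and each library left out.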

Additional observations from a re-analysis of the deposited data

How the results depend on the processing

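No gene was called in the main comparison, and called counts stayed at 0 of 67 in BAT and 0 of 29 in liver under variance moderation, library ranks, library medians subtracted and genes tied at the lowest value left out, as they did with BAT z-scores recomputed over the 5 libraries. With each library left out, non-overlapping BAT genes ranged between 6 (without Cre 4, where 38.3% of all genes were) and 66 (without control 2), against 5 with all libraries. Without control 2, 77% of all BAT genes were non-overlapping and lower and 9.56% higher. Non-overlapping liver genes ranged between 0 (without Cre 11 or control 9, with 27.9% and 33.3% of all genes) and 15 (without control 7), against 0 with all. Without control 7, 32.2% of all liver genes were non-overlapping and lower and 14.8% higher. With library medians subtracted, 4 liver genes were non-overlapping (Gbp3, Ifit3b and Ifi27l2a higher, against 12.8% of all genes, and Trim30b lower in Cre, against 11.1%). Among these settings BAT genes were called only without control 2. The sign of the difference changed for 49 of 67 BAT genes without control 1 and for 17 with medians subtracted (with library ranks 24 became 0 and none changed sign). It changed for 11 of 29 liver genes without control 8. Leaving out any Cre library changed no sign in BAT and at most 4 in liver. The liver GTPase mean difference moved to 0.12 without Cre 12 (-0.24 with all). Without control 8 it was above 0 too, as was the mean difference of the liver type I genes. The mean difference of the BAT type I genes lay between -2.4 and 0.17 with each library left out, and that of the GTPases between -2.61 and 0.21, each positive only without control 1. No paired analysis was possible because the groups share no replicate numbers and no label ties a BAT library to a liver library. Depth is unknown, so what it limits cannot be stated, and with 3 libraries against 2 or 3 a miss of the threshold does not show that groups were alike.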
